A study of Mus musculus with 2 samples.

Results

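Regulatory T cells and other T cells carrying CTLA-4 or OX40 transcripts were picked out of single-cell data on the periodontium of the mouse upper jaw, which holds the teeth in place. They were chosen by unique molecular identifiers (UMIs, each standing for 1 captured transcript) in barcodes that had 200 or more genes and no more than 20% mitochondrial UMIs. A member had at least 1 UMI of Cd3d, Cd3e or Cd3g (T cell receptor subunits), and either at least 1 UMI of Foxp3 or at least 3 UMIs of Ctla4 and Tnfrsf4 together. It also had fewer than 2 UMIs of Trdc, Il17a and Cd163l1 together (gamma-delta and interleukin-17 T cells), fewer than 3 of Cd79a (B cells), fewer than 10 of Krt5 and Krt14 together (keratinocytes) and fewer than 5 of Dcn (fibroblasts). The rule found 246 members among 32641 kept barcodes. Of these, 181 were among the 15351 kept barcodes of the library titled 377P and 65 among the 17290 of the library titled RP. Foxp3-positive members, with at least 1 Foxp3 UMI, numbered 51 in 377P and 17 in RP. Foxp3-zero members, which entered through Ctla4 and Tnfrsf4, numbered 130 and 48. The rule is a set of limits on measured UMIs and not a cluster, so values of its own genes are given as descriptions.

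Both libraries were made from that tissue with the 10x Genomics 3' v3 kit, in a study titled as one on diabetic periodontitis and its resolution. The labels say neither what the titles 377P and RP stand for nor how many animals entered each library, and they give no genotype, treatment, time or age. Each title has 1 library, so no difference between the libraries has a replicate check, no test was possible, and no p-value is given. All intervals are 95% intervals of counting error only.

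Regulatory T cells are T cells that restrain immune responses, and the transcription factor Foxp3 defines their lineage. They carry CTLA-4, a receptor that takes B7 ligands away from CD28, and often OX40 (Tnfrsf4), a receptor of the TNF receptor superfamily that supports T cell survival. Activated conventional T cells raise CTLA-4, OX40, the costimulatory receptor ICOS and CD30 ligand (Tnfsf8) as well, so these transcripts alone do not separate the lineages.

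Ctla4 lies on mouse chromosome 1 (chr1:60887000-60915832, GRCm38, plus strand), between Cd28 (chr1:60716800-60773359) and Icos (chr1:60977927-61000320). Tnfrsf4 (chr4:156013843-156016612) and Tnfrsf18 (chr4:156026164-156028895), which encodes GITR, are neighbours on chromosome 4. Foxp3 is on chromosome X (chrX:7573644-7595245), and Tnfsf8 is on the minus strand of chromosome 4 (chr4:63831308-63861347). Below are 250 bases before the RefSeq start (GRCm38.p6) of Ctla4 and Tnfrsf4, the genes of the second arm of the rule, shown because the members were chosen by these genes. RefSeq starts differ from the gene ends above, which come from the GENCODE annotation. The Ctla4 window (chr1:60908775-60909024, plus strand) ends directly before the first protein-coding transcript at 60909025, and lies inside the gene's span because a longer non-coding transcript starts at 60887000. The Tnfrsf4 window (chr4:156013445-156013694, plus strand) lies before the whole GENCODE gene. Capitals mark the core letters bound by NFAT, a factor activated by T cell receptor signalling (GGAAA, or TTTCC on the other strand).
Ctla4: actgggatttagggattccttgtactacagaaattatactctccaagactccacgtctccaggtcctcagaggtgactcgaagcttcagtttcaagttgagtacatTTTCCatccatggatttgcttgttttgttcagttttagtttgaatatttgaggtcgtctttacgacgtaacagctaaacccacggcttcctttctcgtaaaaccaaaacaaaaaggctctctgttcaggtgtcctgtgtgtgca
Tnfrsf4: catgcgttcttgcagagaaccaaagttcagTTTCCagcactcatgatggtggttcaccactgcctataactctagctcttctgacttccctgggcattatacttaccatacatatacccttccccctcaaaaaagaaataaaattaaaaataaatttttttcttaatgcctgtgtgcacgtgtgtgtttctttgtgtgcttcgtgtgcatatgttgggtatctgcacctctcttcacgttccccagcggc
Each window held 1 match to the NFAT core, searched on both strands. Of the 32536 promoter windows of that length, 55.7% held at least 1 match. Neither held the NF-kB letters GGGNNNNNCC, present in 46.0% of windows, or the AP-1 letters TGANTCA, present in 6.73%. A match is a stretch of letters and not a bound site.

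The deposited matrices held 127094166 UMIs in 377P and 120909095 in RP. Members had a median of 4167 UMIs and 1861 genes in 377P and of 4013 UMIs and 1802 genes in RP. Their summed depth was 840476 and 288518 UMIs. The Foxp3-positive members of RP were shallower, with a median of 3014 UMIs against 4349 in 377P. The libraries shared 82 barcode sequences, 76 of them kept in both. Of the 82, 1 was a member in 377P and 0 were members in RP. In RP, 2 members had more than 15000 UMIs (19243 and 16619) and held 12.4% of all RP member UMIs, while 377P had none. The deeper held 55 of 72 Selp and 25 of 32 Flt1 UMIs of RP members, both genes of blood vessel endothelium, and the other held 23 of 33 Rgs5 UMIs, a pericyte gene. The doublet caller Scrublet marked the member with Rgs5, and not the one with Selp, as a doublet. Transcripts of gland and nasal secretions (Tff2, Muc5b and 4 Obp genes) reached 9604 counts per 1000000 UMIs (CPM) in RP members and 1929 in 377P members, against 30610 and 4040 over all kept barcodes. Obp1a, Obp1b, Obp2a and Obp2b were at 0 in RP members.

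Members made up 1.18% (1.01 to 1.36%) of kept barcodes in 377P and 0.376% (0.290 to 0.479%) in RP. Their share of T cells was much closer. It was 10.6% (9.19 to 12.2%) of 1705 Cd3-positive barcodes in 377P and 9.82% (7.66 to 12.3%) of 662 in RP. These T cells were held to the limits on Cd79a, keratins and Dcn, but not to that on Trdc, Il17a and Cd163l1. Barcodes over the latter limit were 114 (6.69%) of them in 377P and 123 (18.6%) in RP. The Foxp3-positive share of members was 28.2% (21.8 to 35.3%) and 26.2% (16.0 to 38.5%). Cd3-positive barcodes within the limits on Cd79a, keratins and Dcn were 11.1% of kept barcodes in 377P and 3.83% in RP. The split of members by Foxp3 overlapped within counting error. The limits on other cell types acted unequally, for they removed 87 otherwise qualifying barcodes in 377P and 7 in RP. With stricter limits (no Cd79a or Dcn UMI, and fewer than 3 of Krt5 and Krt14 together and of Lyz2) only 16 and 19 members were left, and the shares of kept barcodes were then 0.104% and 0.110%. Members held a median of 5 keratin UMIs in 377P and 2 in RP, and the part of these transcripts in the shares was not tested.

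The rule genes marked the members as follows. In Foxp3-positive members Foxp3 stood at 385 CPM (377P) and 319 CPM (RP). In 377P 30 of the 51 had a single Foxp3 UMI, and in RP 12 of the 17 did, with maxima of 8 and 4 UMIs. Ctla4 reached 959 CPM in 377P members and 870 CPM in RP members, and Tnfrsf4 645 and 693 CPM. Most Foxp3-positive members of 377P met the limit on Ctla4 and Tnfrsf4 as well (39 of 51), against 8 of 17 in RP, and 5 and 3 of them had no UMI of either gene. Of all Foxp3 UMIs in kept barcodes, members held 48.4% in 377P and 42.9% in RP. The remaining Foxp3 UMIs include 30 barcodes of 377P and 26 of RP with Foxp3 but no Cd3 UMI. In the plot of rule genes, most points sit near the limits, and a single RP member, the deep one with pericyte transcripts that was marked as a doublet, stands out with 4 Foxp3 and 39 Ctla4 and Tnfrsf4 UMIs.

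**Figure D1:**
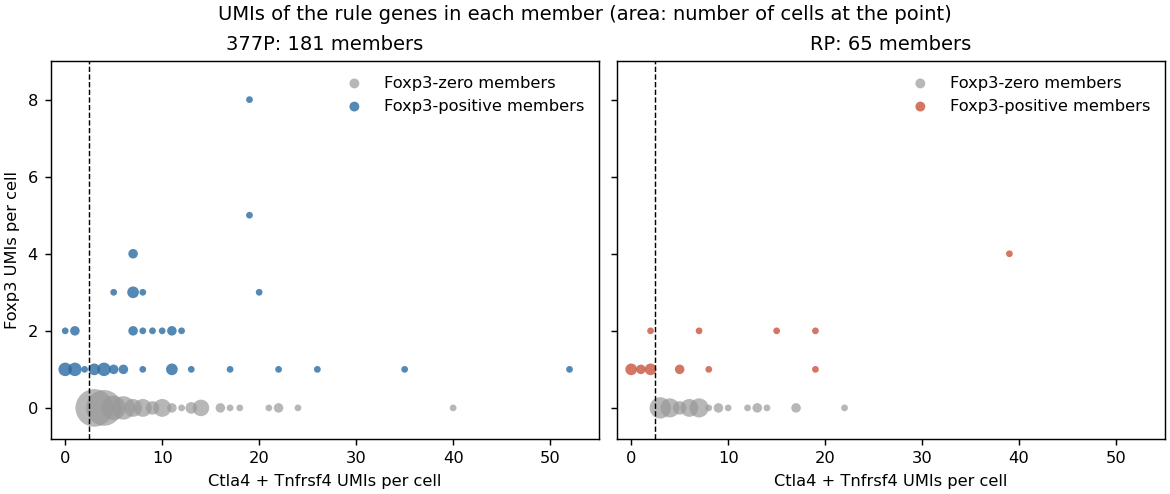
Foxp3 UMIs per cell (vertical) against the sum of Ctla4 and Tnfrsf4 UMIs per cell (horizontal) for all 181 members of 377P (left) and 65 of RP (right); point area is proportional to the number of cells, grey points are Foxp3-zero members and the dashed line is the limit of 3 UMIs. Foxp3-zero members crowd at 3 and 4 UMIs, and most Foxp3-positive members carry a single Foxp3 UMI.

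The limit of 3 UMIs cut through a continuous range. In 377P 31 Foxp3-zero members sat at exactly 3 UMIs and 56 T cells just outside at 2. In RP these numbers were 10 and 21. Icos was at 495 CPM just inside and 387 just outside in 377P, and at 426 and 384 in RP. Tnfsf8 was at 394 and 289 CPM in 377P, and at 1096 and 423 in RP. Ikzf2, which encodes Helios, was at 472 and 139 CPM in 377P and at 487 and 529 in RP. The share of cells with an Ikzf2 UMI was lower just outside in both libraries. It was 48.4% inside and 21.4% outside in 377P, and 60% and 28.6% in RP.

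The free RNA of a droplet run gives UMIs in cells that do not express a gene, so shares of members with a UMI are read beside 2 sets of barcodes of other types. These are keratin-rich barcodes (at least 50 Krt5 and Krt14 UMIs; 2908 in 377P with a median of 15512 UMIs, 2546 in RP with 12208) and Dcn-rich barcodes (at least 20 Dcn UMIs; 2607 with 7640, and 3233 with 5561). All were deeper than members. Foxp3 was found in 0.516% and 0.236% of keratin-rich barcodes of 377P and RP. For Ctla4, 90.6% and 81.5% of members had a UMI against 8.80% and 4.24% of keratin-rich barcodes. After thinning every cell to 2000 UMIs, which left out 11 and 10 shallower members, the Ctla4 shares expected over all draws were 77.0% and 71.1%, and those of Foxp3 were 17.2% and 12.4% against 28.2% and 26.2% before. All thinned shares below are such expected shares.

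CD30 ligand (Tnfsf8), which signals to CD30 on other lymphocytes, had the wider gap to other T cells of the 2 marker genes outside the rule, Tnfsf8 and Icos. It stood at 729 CPM in members of 377P and 700 in those of RP. Lef1 encodes a factor of naive T cells, and Lef1-positive T cells were the Cd3-positive barcodes within the same limits that held Lef1 and were not members (1062 in 377P, 267 in RP). There Tnfsf8 stood at 34.1 and 20.3 CPM. The folds were 21.4 (18 to 25.5) and 34.5 (22.2 to 56.3). Interleukin-17 or gamma-delta T cells were the T cells over the limit on Trdc, Il17a and Cd163l1 (114 and 123 barcodes), and against them the folds were 3.72 (2.96 to 4.71) and 6.04 (4.39 to 8.46). A UMI was found in 47.5% and 50.8% of members, and in 40.4% and 40.8% after thinning, against 3.23% and 1.49% of keratin-rich barcodes. Members thus held 26.3% of all Tnfsf8 UMIs of 377P and 21.1% of those of RP, although they held 0.662% and 0.241% of all UMIs.

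Icos, the inducible costimulator, was at 633 CPM in 377P members and 828 in RP members, against 107 and 96.0 in Lef1-positive T cells. The folds were 5.90 (5.22 to 6.66) and 8.63 (6.83 to 11.0). Interleukin-17 or gamma-delta T cells carried about as much Icos, 781 and 714 CPM, so Icos set members apart from Lef1-positive T cells but not from this other group. Icos was found in 67.4% and 73.8% of members (53.7% and 63.7% after thinning) against 4.30% and 1.41% of keratin-rich barcodes. Cd28, whose product competes with CTLA-4 for B7 ligands, was at 575 and 496 CPM in members, and 2.0 (1.80 to 2.22) and 1.82 (1.48 to 2.23) times its level in Lef1-positive T cells.

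The other TNF receptors of members followed the same order. Tnfrsf9 (4-1BB) was at 382 and 395 CPM in members of 377P and RP against 29.9 and 30.5 in Lef1-positive T cells, folds of 12.8 (10.5 to 15.6) and 13.0 (8.74 to 19.7). Tnfrsf18 (GITR) was at 290 and 309 CPM, folds of 3.64 and 3.56. Both genes were close to equal between the libraries. Tnfrsf18 was lower in interleukin-17 or gamma-delta T cells (57.1 and 21.7 CPM), while Tnfrsf9 was higher there than in members (436 and 763 CPM).

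The transcription factor gene Ikzf2 was at 976 CPM in 377P members and 1081 in RP members, against 78.6 and 84.9 in Lef1-positive T cells, folds of 12.4 (11 to 14) and 12.7 (10.1 to 16.3). Ikzf2 is not specific to T cells in this tissue, for 36.8% and 43.0% of keratin-rich barcodes held a UMI, against 65.7% and 63.1% of members. Maf, a factor of effector T cells, was at 358 and 357 CPM against 38.1 and 62.7 in Lef1-positive T cells, and at 445 and 485 CPM in interleukin-17 or gamma-delta T cells, above members. Rora was at 1168 and 1307 CPM, folds of 4.97 (4.56 to 5.41) and 5.0 (4.28 to 5.86), yet higher still in interleukin-17 or gamma-delta T cells (2189 and 2316 CPM). Tox2 was at 83.3 and 83.2 CPM in members, against 6.42 CPM in Lef1-positive T cells of 377P and 3 UMIs (2.77 CPM) in those of RP.

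**Figure D2:**
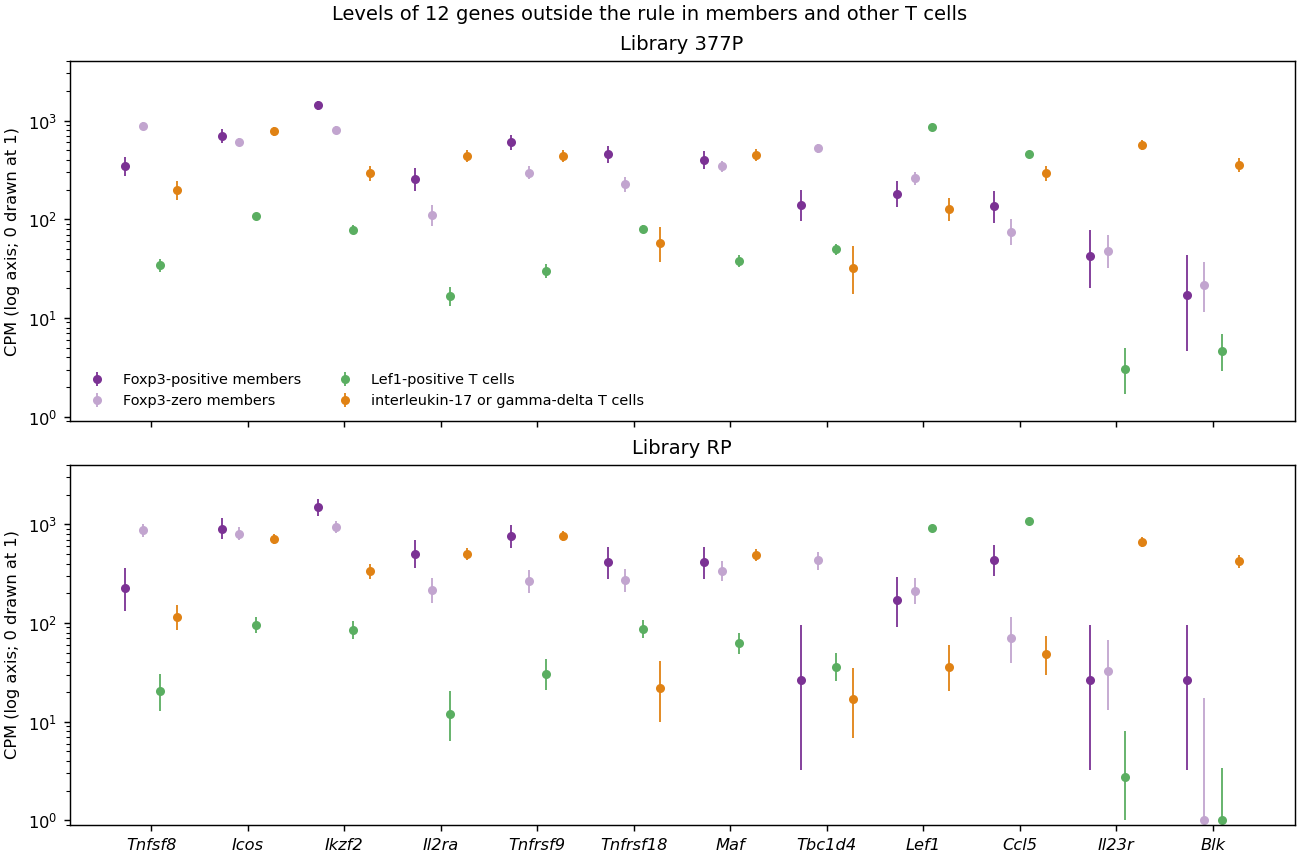
Levels in CPM (log axis, 0 drawn at 1) of 12 genes outside the rule in Foxp3-positive and Foxp3-zero members, Lef1-positive T cells (chosen by Lef1) and interleukin-17 or gamma-delta T cells, in 377P (top) and RP (bottom); points are pooled levels and bars their 95% counting intervals. Tnfsf8, Ikzf2, Tnfrsf9 and Maf lie above the Lef1-positive T cells in both kinds of member, and Il23r and Blk lie highest in interleukin-17 or gamma-delta T cells.

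Genes of regulatory T cell identity outside the rule were higher in members than in Lef1-positive T cells. Of 14 such genes, 11 had at least 20 UMIs in the class where they were higher in 377P, and all 11 were higher in members, 10 of them by 2-fold or more. In RP 6 passed that filter, all 6 were higher and 5 by 2-fold or more. Over all genes, 495 of 8292 in 377P and 322 of 4763 in RP were higher by 2-fold or more, each library by itself. In both libraries at once, 3.56% (161 of 4523) were higher by 2-fold or more and 2.17% (98) lower. The list's median log2 ratio was 1.99 in 377P and 3.27 in RP, beside -0.04 and -0.15 over all genes. Members were chosen with genes of this program, and genes pass the filter mostly through the class where they are high, so the counts are a description. Against interleukin-17 or gamma-delta T cells the same list was split, with 7 of 11 higher in 377P (median 1.74) and 3 of 7 in RP (median -0.40), beside 0.21 and -0.08 over all genes. Over all genes that passed, 46.5% in 377P and 38.2% in RP were higher in members than in Lef1-positive T cells. Against interleukin-17 or gamma-delta T cells these shares were 65.6% and 44.9%. They stand beside the list counts of these comparisons below.

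Il2ra (CD25, the high-affinity chain of the interleukin-2 receptor) was at 150 CPM in 377P members and 291 in RP members, against 16.7 and 12 in Lef1-positive T cells. It was higher still in interleukin-17 or gamma-delta T cells, at 441 and 502 CPM, where 53.5% and 61.8% of barcodes held a UMI against 30.4% and 24.6% of members (38.3% and 53.9% against 18.3% and 19.2% after thinning). Izumo1r (folate receptor 4) was at 139 and 114 CPM, folds of 13.6 (9.72 to 19.3) and 20.7 (8.55 to 60.3). Members held 31.8% and 53.2% of all Izumo1r UMIs. Capg was at 113 and 222 CPM, and Tigit, an inhibitory receptor, at 57.1 and 48.5 CPM against 7.22 and 14.8 in Lef1-positive T cells. Some defining genes were sparse: Il10 gave 27 UMIs in 15 cells of 377P and 10 UMIs in 6 cells of RP, and Ebi3 2 and 1 UMIs. Members held only 3.24% and 1.02% of all Il10 UMIs of the libraries.

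Genes of effector and tissue regulatory T cells had the same order against Lef1-positive T cells. All 15 of 20 that passed the filter in 377P were higher than in Lef1-positive T cells, 12 by 2-fold or more, and all 9 that passed in RP, 7 by 2-fold or more. Against interleukin-17 or gamma-delta T cells 7 of 15 and 3 of 11 were higher, beside 65.6% and 44.9% of all genes. The list medians there were -0.24 and -0.78. Il1rl1, the interleukin-33 receptor ST2, was at 55.9 CPM in 377P members (47 UMIs in 18 cells) and 132 in RP members (38 UMIs in 8 cells). Itgb8, whose integrin activates TGF-beta, was at 45.2 and 58.9 CPM against 1.2 and 2.77. Ccr8, a receptor of tissue regulatory T cells, gave 14 UMIs in 14 cells and 9 in 8. Areg (amphiregulin) was at 72.6 and 139 CPM in members and higher in interleukin-17 or gamma-delta T cells, at 737 and 1404 CPM, a gap of 10.2-fold and 10.1-fold.

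Genes of follicular helper T cells were also higher in members: 9 of 9 that passed the filter in 377P and 6 of 7 in RP, with medians of 2.07 and 2.27. Against interleukin-17 or gamma-delta T cells 8 of 9 and 6 of 7 were higher, beside 65.6% and 44.9% of all genes. Slamf6 was at 105 and 107 CPM against 41.3 and 25.8 in Lef1-positive T cells, and Tox at 1328 and 1137 CPM against 316 and 235. The defining factors were weaker. Bcl6 had a log2 ratio of 0.73 in 377P and -0.34 in RP. Il21 gave 6 and 2 UMIs, all in Foxp3-zero members, which were 71.8% and 73.8% of members. Izumo1r is on this list as well as on that of regulatory T cell identity.

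Lower in members than in Lef1-positive T cells were naive and cytotoxic genes. Of 13 naive genes, 12 were lower in each library, with medians of -0.56 and -0.82, though Lef1 itself chose the other group. Klf2, which keeps naive T cells recirculating, was at 384 and 302 CPM against 760.5 and 532. Ccr7, the lymph node homing receptor, was nearly as high in members (352 and 270 CPM) as in Lef1-positive T cells (396 and 321). All 10 cytotoxic genes that passed in 377P and all 7 in RP were lower, among them Ccl5 at 91.6 and 166 CPM against 453 and 1067. Eomes gave 2 UMIs in members of 377P and 1 in those of RP. Cd8a or Cd8b1 without Cd4 was found in 33.3% and 28.5% of Lef1-positive T cells, against 4.42% and 6.15% of members. The part of this difference in the gaps between members and Lef1-positive T cells was not tested.

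Of the remaining lists, costimulatory and TNF superfamily genes outside the rule were higher in members than in Lef1-positive T cells for 11 of 12 that passed in 377P and 11 of 11 in RP, with medians of 1.75 and 2.21. Against interleukin-17 or gamma-delta T cells these were 6 of 14 and 6 of 13, beside 65.6% and 44.9% of all genes. Inhibitory receptor genes were higher for 7 of 7 in 377P (median 1.73), and 1 passed in RP. Pdcd1 (PD-1) was at 39.3 and 65.9 CPM in members, against 278 and 367 in interleukin-17 or gamma-delta T cells. Tissue residency genes were higher than in Lef1-positive T cells for 7 of 8 and 4 of 5 (medians 1.44 and 1.10), but against interleukin-17 or gamma-delta T cells 1 of 8 and 0 of 7 were higher. Against Lef1-positive T cells, T cell receptor complex genes were higher for 13 and 12 of 16 (0.55 and 0.72). Chemokine and migration receptors split as 7 higher and 4 lower in 377P, and 2 and 2 in RP. Glycolysis genes were higher for 12 of 13 and 10 of 11 (medians 0.40 and 0.84), and interferon response genes for 4 of 10 and 2 of 6. Of all genes, 46.5% and 38.2% were higher than in Lef1-positive T cells.

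The helper T cell lists differed in direction. Type 1 helper genes were higher than in Lef1-positive T cells for 3 of 7 and 3 of 5, beside 46.5% and 38.2% of all genes. Ifng (interferon-gamma) gave 5 and 3 UMIs. Of the type 2 helper list, Gata3 and Il1rl1 passed, and both were higher. Il4 gave 10 UMIs in 2 cells of 377P and 0 in RP. Type 17 helper genes outside the rule were higher for 4 of 4 and 2 of 2 that passed, yet lower than in interleukin-17 or gamma-delta T cells for all 4 and 5.

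The largest other ratios to Lef1-positive T cells, by the fold end nearest to 1 in the weaker library, belonged to Myo3b, Frmd5, Ttc39c and Eea1. Myo3b, an unconventional myosin, was at 158 and 139 CPM against 4.41 and 7.38, folds of 35.9 (22.7 to 59.2) and 18.8 (8.67 to 46.5). It was found in 21.5% of members of 377P and 24.6% of those of RP, against 1.13% and 0.589% of keratin-rich barcodes. Frmd5 rested on few cells, 7 in 377P and 4 in RP. Eea1, an early endosome protein, was at 405 and 464 CPM against 47.3 and 48.0.

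Immediate early and heat shock genes, a stress response, did not separate members from Lef1-positive T cells. Their medians were -0.25 and -0.13, with all 16 genes past the filter in both libraries and none past 2-fold. Genes of the T cell receptor and NF-kB response were split, 9 higher and 9 lower in 377P and 8 and 9 in RP. Dusp2, a phosphatase gene, had log2 ratios of -1.37 and -1.72, while Cd44 (memory and activation) had 1.10 and 1.19 and Cd5, which scales with receptor signalling, 1.07 and 1.24. The interleukin-2 and STAT5 list was higher in members for 9 of 11 genes in 377P (median 0.29) and 4 of 10 in RP (median -0.11). Of all genes, 46.5% and 38.2% were higher. On this list Cish, a feedback inhibitor induced by STAT5, was at 111 and 97.0 CPM against 35.7 and 35.1 in Lef1-positive T cells. Cell cycle genes were higher in members than in Lef1-positive T cells for 7 of 7 that passed in 377P (median 0.72) and 4 of 4 in RP. A UMI of Mki67 or Top2a was found in 26% (47) of 377P members and 13.8% (9) of RP members, against 16.7% and 15.0% of Lef1-positive T cells. Mki67 alone was found in 13.8% and 7.69% of members and in 530 of 2607 and 373 of 3233 of the deeper Dcn-rich barcodes, and the part of free RNA in the members' shares was not tested. In RP 17 of the 28 Mki67 UMIs came from 1 cell.

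Interleukin-17 or gamma-delta T cells differed from members in another direction. Of all genes, 3.58% (121 of 3383) were higher in members by 2-fold or more in both libraries and 7.83% (265) lower. Tbc1d4, a Rab GTPase activator, was at 415 and 326 CPM in members against 32.0 and 16.9, folds of 13.0 and 19.3. Cd27, a costimulatory receptor, was at 152 and 132 CPM against 13.7 and 7.24, and Cd2, an adhesion receptor, at 491 and 374 against 73.1 and 33.8. Il23r, the interleukin-23 receptor, was at 46.4 and 31.2 CPM against 566 and 659. Zbtb16 (PLZF, a factor of innate-like T cells) was at 4.76 and 13.9 CPM against 295 and 285. Blk was at 20.2 CPM against 356 in 377P, and in RP it gave 2 UMIs in members against 420 CPM. The rule removes barcodes with Trdc, Il17a and Cd163l1, so part of these gaps was built into it. All 16 immediate early and heat shock genes were lower in members here, with medians of -1.32 and -1.28. Depth, with medians of 3562 and 2650 UMIs in that group, also differed, and its part was not tested.

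Of the 7 genes of the gamma-delta list, Trdc, which the rule limits, Tcrg-C1 and Trdv4 were at 0 in members of both libraries. Tcrg-C2, Cd163l1, Sox13 and Blk were detected in both. The list gave 24 UMIs in 9.94% of 377P members and 6 in 7.69% of RP members. That was 28.6 and 20.8 CPM, against 10.8 and 11.1 in Lef1-positive T cells and 2755 and 3248 in interleukin-17 or gamma-delta T cells. Transcripts of Trac, Trbc1 or Trbc2 (alpha-beta receptor chains) were found in 95% (172) of members in 377P and 93.8% (61) in RP. Cd4 without Cd8a or Cd8b1 was found in 23.8% (43) and 15.4% (10), Cd8 without Cd4 in 8 and 4 cells, and neither in 70.2% (127) and 76.9% (50). Cd4 itself was at 70.2 and 69.3 CPM, too low to class most cells. Transcripts of other cell types were present in nearly every member, since 99.4% and 96.9% held a UMI of the keratinocyte list, which stood at 1330 and 967 CPM. B cell genes were at 90.4 CPM in 377P members, while in RP Cd79a, Cd79b, Ms4a1 and Bank1 were at 0. Monocyte and macrophage genes were at 86.9 and 284 CPM, with Cd68 and Adgre1 at 0 in RP.

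Few genes differed between Foxp3-positive and Foxp3-zero members by 2-fold or more in both libraries. Of all genes tested, 0.261% (4 of 1535) were higher by 2-fold or more in Foxp3-positive members in both libraries and 1.76% (27) lower. In each library by itself the counts were 55 higher and 249 lower of 3735 genes in 377P, and 50 and 270 of 1600 in RP. With a limit that treats both groups alike, a mean of at least 50 CPM, the counts were 15 and 23 of 2914. The deep RP member marked as a doublet was Foxp3-positive. It held 16619 of the 75273 UMIs of the 17 Foxp3-positive members of RP, but only 1 Trac and 8 Trbc2 UMIs. Without barcodes over 15000 UMIs the counts in both libraries were 3 and 19 of 1308. The part of this member in the RP values of Foxp3-positive members was not tested. With most positive cells at 1 or 2 UMIs, a Foxp3 count of 0 does not show that a cell lacked the transcript.

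Il2ra was at 254 CPM in Foxp3-positive and 109 in Foxp3-zero members of 377P, and at 505 and 216 in those of RP, folds of 2.32 (1.61 to 3.35) and 2.34 (1.48 to 3.68). It was found in 43.1% against 25.4% of cells in 377P and in 47.1% against 16.7% in RP. After thinning the shares were 23.8% against 16.1% in 377P and 45.0% against 12% in RP. In 377P 1 cell gave 26 of the 60 UMIs of Foxp3-positive members. Tnfrsf9 was at 601 and 296 CPM in 377P and at 757 and 267 in RP, folds of 2.03 (1.62 to 2.54) and 2.83 (1.93 to 4.16), but with the rule applied to 1 draw of thinned cells its log2 ratio in 377P was -0.19. Ikzf2 was at 1426 and 799 CPM in 377P and at 1488 and 938 in RP, folds of 1.78 (1.55 to 2.05) and 1.59 (1.25 to 2.01). The Ikzf2 ratio in RP was -0.10 on the log2 scale with thinned cells and -1.48 under the stricter limits. Of 9 regulatory T cell identity genes outside the rule that passed the filter in 377P, 7 were higher in Foxp3-positive members, with a median of 0.83 beside -0.12 over all genes. In RP 5 of 6 were higher, with a median of 0.63 beside -0.33. Over all genes 36.1% were higher in Foxp3-positive members in 377P and 23.6% in RP.

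Lamc1, a laminin chain, had the highest ratio by its nearer end. It was at 195 and 71.2 CPM in 377P and at 359 and 98.5 in RP, folds of 2.73 (1.76 to 4.24) and 3.64 (1.98 to 6.78). Lamc1 is abundant in other cells of the tissue, with 130 CPM in keratin-rich and 212 CPM in Dcn-rich barcodes of 377P. Il18r1, the interleukin-18 receptor, was at 347 and 184 CPM in 377P and at 319 and 150 in RP. The apparent difference in Ccl5 rested on single cells, since 29 of the 33 Ccl5 UMIs of Foxp3-positive members in RP came from 1 cell and 25 of 32 in 377P. In 377P Il1rl1 was at 152 CPM in Foxp3-positive and 18.2 in Foxp3-zero members, a fold of 8.37 (4.17 to 18.2). In RP its values were 173 and 117 CPM, a fold of 1.47 (0.692 to 2.99).

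Higher in Foxp3-zero members were Tnfsf8, Tbc1d4, Themis and Tcf7. Tnfsf8 was at 347 CPM in Foxp3-positive and 879 in Foxp3-zero members of 377P and at 226 and 868 in those of RP, which made it 2.53-fold (2.0 to 3.24) and 3.84-fold (2.33 to 6.74) higher in Foxp3-zero members. It was found in 29.4% against 54.6% of cells in 377P and in 35.3% against 56.2% in RP. The order was the same after thinning, 25.8% against 46.1% and 24.7% against 45.3%. By the rule every Foxp3-zero member held at least 3 Ctla4 and Tnfrsf4 UMIs, as did 39 of 51 and 8 of 17 Foxp3-positive members. Tnfsf8 was at 394 CPM just inside that limit and 289 just outside in 377P, and at 1096 and 423 in RP. The part of the rule in the gaps between Foxp3-positive and Foxp3-zero members was not tested. Tbc1d4 was at 140 and 523 CPM in 377P, and in RP at 2 UMIs (26.6 CPM) and 431 CPM. Themis, a regulator of T cell receptor signalling in thymocytes, was at 42.3 and 324 CPM in 377P, a gap of 7.67-fold (4.08 to 16.2), and at 4 UMIs (53.1 CPM) and 342 CPM in RP, a gap of 6.44-fold (2.41 to 24.3). Tcf7, a factor of naive and memory T cells, was at 67.7 and 176 CPM in 377P, and in RP at 2 UMIs (26.6 CPM) and 150 CPM. The naive list as a whole was split in 377P, where 6 of 13 genes were higher in Foxp3-positive members. In RP 2 of 9 were. The list medians were -0.07 and -0.87, beside -0.12 and -0.33 over all genes. Sh2d1a (SAP, needed for T cell help to B cells) was at 123 and 255 CPM in 377P and at 1 and 39 UMIs in RP. Cd40lg, the ligand through which helper T cells activate B cells, gave 5 UMIs in Foxp3-positive and 30 in Foxp3-zero members of 377P. In RP it gave 0 and 24. Foxp3-zero members were 71.8% and 73.8% of members.

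**Figure D3:**
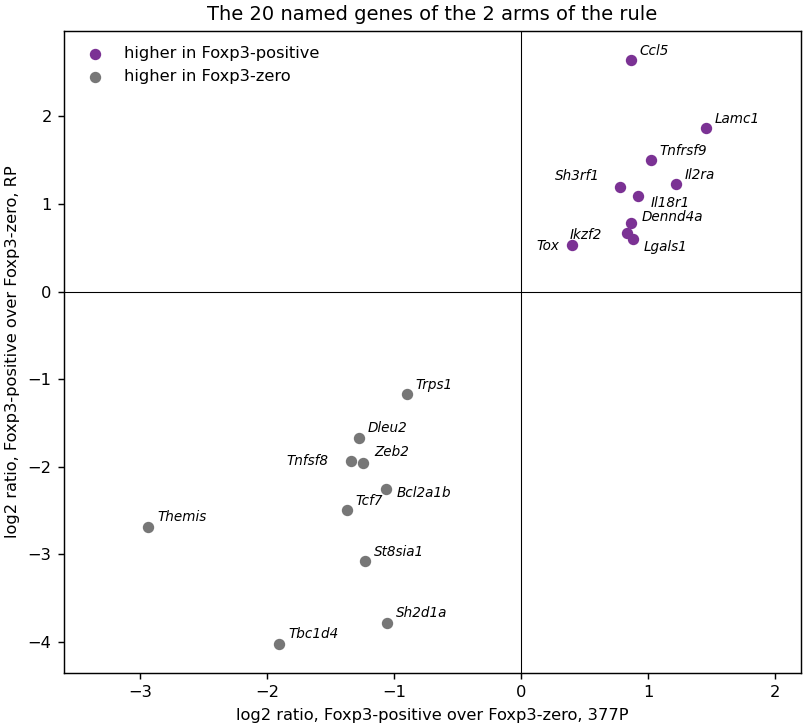
Log2 ratio of CPM, Foxp3-positive over Foxp3-zero members, in 377P (horizontal) and RP (vertical) for the 20 named genes. Lamc1, Tnfrsf9 and Il2ra lie up and to the right, while Themis, Tbc1d4 and Tnfsf8 lie down and to the left, and the genes were chosen for having the same direction in both libraries.

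Cell by cell, 60.8% (31) of Foxp3-positive members of 377P held Ikzf2 without Tnfsf8, against 22.3% (29) of Foxp3-zero members. In RP these shares were 41.2% (7) and 33.3% (16). Ikzf2 was nonetheless common among Foxp3-zero members, in 60.8% (79) of 377P and 62.5% (30) of RP, and 38.5% (50) and 29.2% (14) held both Ikzf2 and Tnfsf8. The Foxp3 arm and the Ctla4 and Tnfrsf4 arm were thus not separated by Ikzf2 detection alone.

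Between the libraries, 2.49% of genes (113 of 4537) were higher by 2-fold or more in RP members and 7.63% (346) lower, with a median log2 ratio of -0.19 over all genes. The filter of 20 UMIs is reached more easily in 377P, which has more member UMIs. With a mean of at least 50 CPM instead, 98 of 3387 genes were higher and 70 lower. In Foxp3-positive members alone 3.42% were higher and 22.6% lower, and in Foxp3-zero members 2.49% and 8.89%. Lef1-positive T cells gave 4.47% and 4.92%, and interleukin-17 or gamma-delta T cells 6.96% and 3.47%, each at its own depth. Tnfsf8, Cd28 and Maf had counting intervals that included 1. Their RP over 377P ratios were 0.960 (0.815 to 1.13), 0.862 (0.711 to 1.04) and 0.997 (0.789 to 1.25). Icos was 1.31-fold (1.12 to 1.53) higher in RP, and Il2ra 1.94-fold (1.46 to 2.58).

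Among the genes with the highest ratios in RP members, Lgals1 (galectin-1) was at 352 CPM in 377P and 943 in RP, a fold of 2.68 (2.26 to 3.17). Actb (beta-actin) was at 2852 and 6759 CPM, a fold of 2.37 (2.23 to 2.52), and S100a4, a calcium-binding protein gene, at 527 and 1237 CPM, a fold of 2.35 (2.04 to 2.70). The same ratios were smaller in Lef1-positive T cells (1.07, 1.37 and 1.42) and in interleukin-17 or gamma-delta T cells (1.23, 1.35 and 1.14), a difference that was not tested. Under the stricter limits, with 16 and 19 members, the log2 ratio of Lgals1 was -1.36 and that of Actb -0.10. Palld (palladin, an actin-bundling protein) was at 77.3 and 291 CPM and was found in 29 cells of 377P and 17 of RP. Atp2a3, a calcium pump of the endoplasmic reticulum, was found in 9.39% (17) and 27.7% (18) of members, at 21.4 and 97.0 CPM.

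Tnfsf11 encodes RANKL, the ligand that drives osteoclast formation and so bears on the alveolar bone around the teeth. It was at 17.8 CPM in 377P members (15 UMIs in 11 cells) and 128 CPM in RP members (37 UMIs in 10 cells), a fold of 7.19 (3.85 to 14.1). All 15 UMIs of 377P and 36 of the 37 of RP were in Foxp3-zero members, which were 71.8% and 73.8% of members. The share of members with a UMI was 6.08% and 15.4%, and after thinning 2.83% and 12%. At most 10 UMIs came from 1 cell of RP, and without the 2 deep members the log2 ratio was 3.0 in place of 2.85. In interleukin-17 or gamma-delta T cells Tnfsf11 was at 107 and 181 CPM, a fold of 1.69 (1.16 to 2.48).

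Procr, Adamts4, Il1r1 and Tifa also had high RP over 377P ratios, and each rested on a deep member. The RP member marked as a doublet held 20 of 24 Procr UMIs, 34 of 39 Adamts4 UMIs and 16 of 24 Tifa UMIs, and the other 34 of 53 Il1r1 UMIs. Without these 2 members the 4 genes no longer reached 20 UMIs. The counts of genes past 2-fold were then 77 higher and 443 lower, of which 68 and 305 were among those counted with all members.

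Lower in RP members were Nt5e and Gimap6. Nt5e (CD73, which makes adenosine) was at 247 CPM in 377P and 83.2 in RP, a gap of 2.98-fold, and was found in 42.5% and 26.2% of members. Its ratio was 0.955 in Lef1-positive T cells and 0.738 in interleukin-17 or gamma-delta T cells. In Foxp3-positive members the levels were 250 CPM in 377P and 3 UMIs (39.9 CPM) in RP. Gimap6, a GTPase of lymphocyte survival, was at 558 and 225 CPM, a ratio of 0.404 (0.307 to 0.524), but it was also lower in Lef1-positive T cells (0.631) and in interleukin-17 or gamma-delta T cells (0.270). Bach2, a repressor that keeps T cells quiescent, was at 1327 and 665 CPM, a ratio of 0.502 (0.428 to 0.585). Of 12 naive genes that passed the filter, 11 were lower in RP, with a median of -0.37. Over all genes 3115 of 4537 were lower, with a median of -0.19. The naive list was also lower in RP for 10 of 13 genes in Lef1-positive T cells (median -0.21). In interleukin-17 or gamma-delta T cells it was lower for 9 of 11 (median -0.67). Fbn2 gave 69 UMIs in 17 cells of 377P and 1 UMI in RP, and the nasal genes Obp1a and Obp1b gave 199 and 154 UMIs in 377P and 0 in RP.

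**Figure D4:**
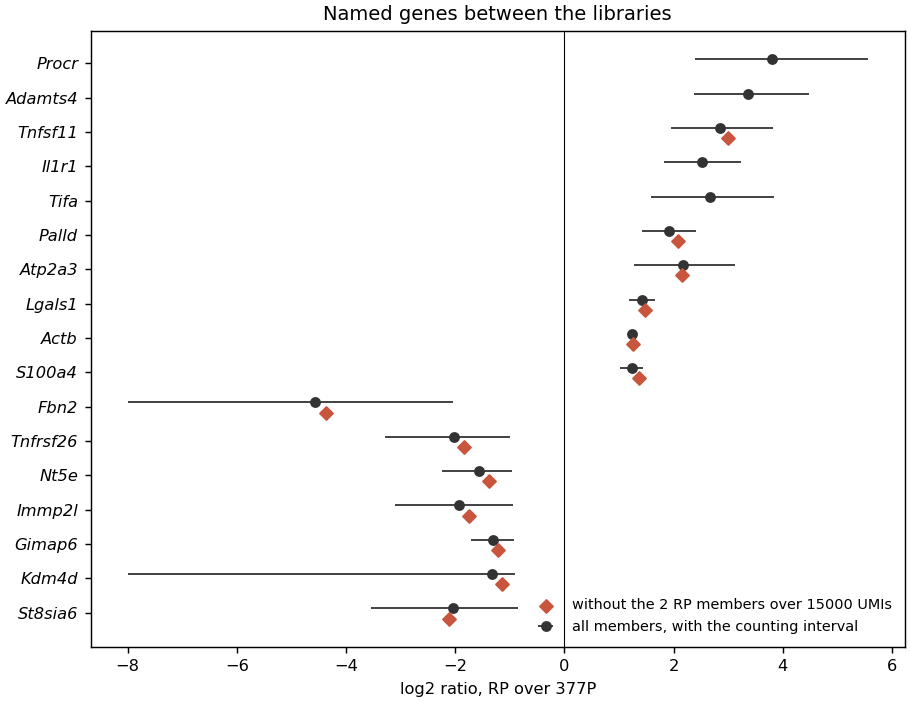
Log2 ratio of CPM, RP over 377P, for the named genes between the libraries, with all members (circles, bars are 95% counting intervals cut at the left where the RP count was 0 or 1) and without the 2 RP members over 15000 UMIs (diamonds). Procr, Adamts4, Il1r1 and Tifa have no diamond because they no longer passed the filter, and the remaining genes moved little.

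The medians between the libraries of the T cell lists with at least 5 genes past the filter lay between -0.80 and 0.35. Over all genes the median was -0.19, and 31.3% were higher in RP. Regulatory T cell identity had a median of -0.11, with 5 of 10 genes higher and none past 2-fold. Costimulatory and TNF superfamily genes had 0.07, and effector and tissue regulatory T cell genes 0.24. The interferon list had -0.80 over 6 genes, where Isg15 was at 30 and 3 UMIs and Gbp2 at 24 and 1 UMIs in 377P and RP. Glycolysis genes had 0.35, with 8 of 10 higher in RP.

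**Figure D5:**
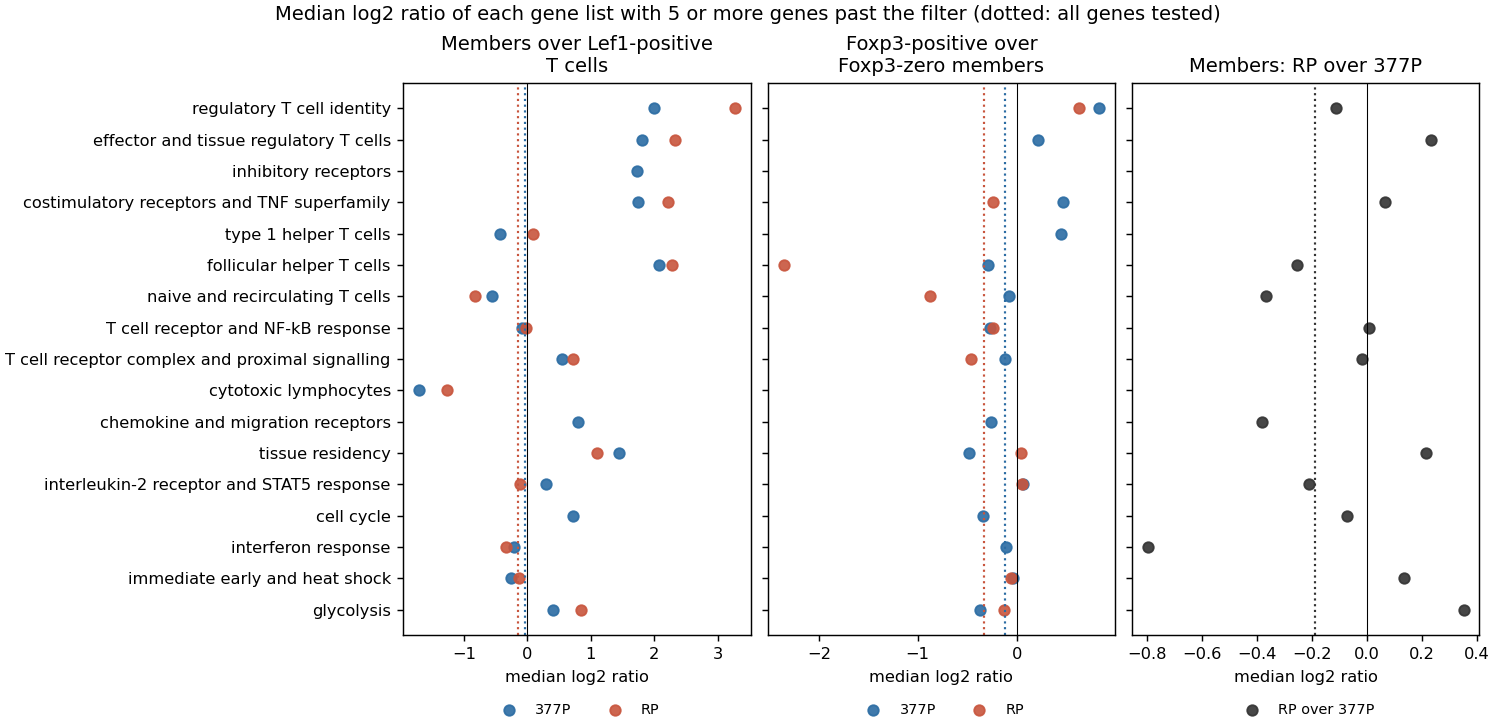
Median log2 ratio of each gene list with at least 5 genes past the filter, for members over Lef1-positive T cells (left), Foxp3-positive over Foxp3-zero members (middle) and RP over 377P members (right); blue is 377P, red is RP and dotted lines are the medians of all genes tested. Regulatory, costimulatory and follicular helper lists lie to the right on the left panel, at 1.75 or more, while the right panel spans -0.80 to 0.35.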

How the data were processed

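The deposited values are raw UMI counts for each gene in each barcode, written by Cell Ranger 7.0.1 per the file headers. Cell Ranger, STAR and the mm10 genome are named in the submitters' processing notes. Which annotation release was used, and whether intronic reads were counted, is not given in the sources used here. The deposited counts are not normalized. The files held 15466 barcodes in 377P and 18112 in RP, of which 115 and 822 failed the limits on genes or mitochondrial UMIs.

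The members and all gene lists were chosen with earlier results of these data known. Members were found by the rule on raw UMIs in each library. UMIs were pooled over the cells of a class and divided by their total to give counts per 1000000 UMIs (CPM). A fold divides one CPM by another, with an exact 95% Poisson interval for the ratio, and shares have exact Clopper-Pearson intervals. Thinned shares are the exact hypergeometric expectation over all draws, chosen after single draws of the same cells were seen to differ. In folds, 0 UMIs were replaced by 3 per class as a floor. CPM compares a gene between classes and not genes of different capture with each other. A gene was compared if it had at least 20 UMIs in the class or library where it was higher, and it was called at 2-fold or more, in both libraries where classes were compared. Named genes were the first 10 in each direction by the fold end nearest to 1, among genes at or above their level over all kept barcodes. For comparisons of classes this used the weaker library. Not eligible were rule genes, predicted genes, sex check genes, T cell receptor chains and mitochondrial, ribosomal protein, hemoglobin and immunoglobulin genes. Any member of the 19 lists of T cell programs or of the 12 lists of other cell types could be named as well.

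Of these 12, natural killer and innate lymphoid genes were at 28.6 CPM in 377P members and 20.8 in RP members, gamma-delta genes at 28.6 and 20.8, neutrophil genes at 109 and 76.3, dendritic cell genes at 8.33 and 13.9, mast cell genes at 10.7 and 17.3, endothelial genes at 249 and 274, perivascular genes at 157 and 430 and fibroblast genes at 690 and 631. The rule has no doublet step. Scrublet, run with an expected share of 12%, marked 836 barcodes in 377P (5.45%) and 569 in RP (3.29%), of which 2 and 1 were members, and removing them was an alternative. The computations used Python 3.11.15, NumPy 2.4.6, SciPy 1.17.1 and Scanpy 1.11.5, and were tested on simulated counts. Gene coordinates are those of the GRCm38 annotation and promoter windows those of RefSeq GRCm38.p6.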

Additional observations from a re-analysis of the deposited data

Results flagged for a closer look

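For 5 genes the direction of a class ratio was opposite in the 2 libraries, in log2 values given for 377P first and RP second. None of these differences was tested, as each title has 1 library. Against interleukin-17 or gamma-delta T cells, Ccl5, a chemokine of cytotoxic and memory T cells, had ratios of -1.67 and 1.79 in members, and most of the Ccl5 UMIs of RP members came from 1 cell. Lat, an adaptor of the T cell receptor, had ratios of -0.44 and 0.57, and Nfatc1, a factor activated by receptor signalling, -0.53 and 0.70 in the same comparison. Against Lef1-positive T cells, the survival kinase gene Pim1 had ratios of 0.17 and -0.27. Between Foxp3-positive and Foxp3-zero members, Klf2 had ratios of 0.40 and -0.88.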

How the results depend on the processing

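Of 150 values of main results under other settings, 108 kept their direction and stayed within 1.5 times or the counting interval, 41 moved and 1 reversed. For named genes 1242 of 1353 did so, 101 moved and 10 reversed. Of 913 list medians, 752 stayed within 0.2 and 161 moved. A gene has a value only where it passes the filter of that setting. The Foxp3-positive share of 377P members was 21.5% with at least 2 UMIs of Ctla4 and Tnfrsf4 and 41.8% with at least 5, where 17 genes were lower in Foxp3-positive members. Under the stricter limits on other cell types, with 16 and 19 members, the log2 ratio of shares was 0.076 in place of -1.65. The counts of genes past 2-fold, higher and lower, were then 47 and 29 between libraries, 34 and 43 against Lef1-positive T cells, 31 and 27 against interleukin-17 or gamma-delta T cells, and 0 and 7 between Foxp3-positive and Foxp3-zero members, with fewer cells. Reversed there were Lgals1 (-1.36) and Actb (-0.10) between libraries, and Ikzf2 (-1.48) and Tox (-1.15) by Foxp3 in RP. With cells thinned to 2000 UMIs, in 1 random draw, 20 genes were higher between libraries, and the pairs of counts were 53 and 60, 32 and 163, and 0 and 4 in the other comparisons. Reversed there, by Foxp3, were Tnfrsf9 (-0.19), Sh3rf1 (-0.071) and Tox (-0.052) in 377P and Ikzf2 (-0.10) in RP. Ccl5 by Foxp3 in 377P was -0.15 with the mean of per-cell CPM and -0.70 without limits on Cd79a, keratins and Dcn. With mitochondrial, ribosomal and gland genes out of the denominator, 162 genes were lower than in Lef1-positive T cells. A filter of 10 UMIs gave 288 and 696 between libraries, 247 and 153 against Lef1-positive T cells, 215 higher than in interleukin-17 or gamma-delta T cells, and 14 and 54 by Foxp3. A filter of 50 UMIs gave 32 and 97, 75 and 41, 52 and 162, and 1 and 10 in the same order. A mean of at least 50 CPM gave 70 lower between libraries, 29 lower than in Lef1-positive T cells and 15 higher by Foxp3. Without limits on Cd79a, keratins and Dcn, 963 were lower between libraries, 149 lower than in Lef1-positive T cells, and 7 and 16 by Foxp3. The last 2 settings, and that without barcodes over 15000 UMIs, were chosen after seeing the data. Apart from the filters and the number of cells, the cause of these moves was not tested. No paired analysis was possible because each title has 1 library. Most Foxp3-positive members held 1 Foxp3 UMI, and the part of depth in this was not tested. A Foxp3 count of 0 does not show that a cell lacked the transcript.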
